A study of Rattus norvegicus with 8 samples.

Results

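The genes that encode the respiratory chain and the ATP synthase of mitochondria were followed in rat nucleus pulposus (NP) cells, the cells at the centre of the intervertebral disc, after knockdown of the deacylase Sirt6. Members were chosen by name from the 13612 rows of the deposited table that carry gene names. A row was kept when its name began with Nduf and a subunit letter, Uqcr, Atp5 or mt-, was Sdha to Sdhd, or was a Cox name of the 4 to 8 series followed by a letter from a to c. This gave 91 rows with 89 different names, since Cox6b1 and Uqcrb each stand on a pair of Ensembl identifiers. Of these, 78 were nuclear-encoded and 13 were mitochondrially encoded, and all 91 passed the filter on low counts. Those 13612 rows are the ones with more than 80 reads over the 8 libraries. The rule itself used names and no difference between the groups, but it was chosen with earlier results of these data known.

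The respiratory chain passes electrons from NADH and succinate to oxygen through complexes I to IV of the inner mitochondrial membrane, and complexes I, III and IV pump protons while they do so. Complex V, the ATP synthase, lets the protons back through its membrane part, F0, and makes ATP in its soluble part, F1. Most subunits are encoded in the nucleus and imported, a few core subunits of complexes I, III, IV and V are encoded by mitochondrial DNA, and complex II is entirely nuclear-encoded. NP cells live in a disc core without blood vessels and are known for a strongly glycolytic metabolism.

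Primary NP cells of adult Sprague Dawley rats were cultured in DMEM with 10% FBS and transduced with lentivirus in both groups, followed by puromycin selection. Sirt6-KD cells (n = 4, libraries S5 to S8) received a mixture of 3 ShSirt6 clones and Sirt6-Ctrl cells (n = 4, libraries S1 to S4) a control ShRNA (ShCtrl). The series record describes cells of 4 rats, but no label ties a Sirt6-KD library to a Sirt6-Ctrl library, so the libraries were compared without pairing. The p-values set the difference between the groups against the spread within each group of 4 libraries. If both groups came from the same 4 rats, the 8 libraries are not independent, and differences between rats stay in that spread.

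The targeted gene followed the labels. Sirt6 was at 56.4, 54.3, 52.5 and 47.6 CPM (counts scaled to the library size) in S1 to S4 and at 21.8, 21.0, 19.2 and 20.6 CPM in S5 to S8 (log2 fold change -1.35 with a standard error of 0.13, quasi-likelihood test of edgeR, adjusted p = 0.000713). Total counts were 31994838 to 40124813 per library. ERCC spike-ins, synthetic RNAs added to the samples, took 6.27% of the counts in S1 and 9.80% in S2, against 2.97% to 3.08% in S3 and S4 and 2.15% to 2.47% in Sirt6-KD. S1 and S2 therefore stand apart, and the calls by complex and by gene list are given with and without them. Among the NP markers, 9 of 16 names were analysed here: Slc2a1, Pax1, Foxf1, Cd24, Car12, Acan, Car3, Sox9 and Krt8, with Car3 and Krt8 called lower and Slc2a1 higher in Sirt6-KD (1 lower and 0 higher without S1 and S2). Krt18, Krt19, brachyury (T or Tbxt), Noto, Shh and Col2a1 were looked for but had no row under these names among the rows analysed here. Nothing can be said of their levels. Of the macrophage markers Cd14 averaged 19.7 CPM in Sirt6-Ctrl and Cd68 and Csf1r at most 3.51 CPM in either group, none of them called, and no endothelial marker passed the filter. The tendon and annulus marker Scx was called lower, from 63.6 to 27.7 CPM (1 of 3 such markers, and 2 of 3 without S1 and S2).

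With TMM scaling, though not with ERCC scaling, nuclear-encoded subunits were lower in Sirt6-KD across all 5 complexes, while most mitochondrially encoded ones were not called. Calls required a fold change above 1.5 together with an adjusted p under 0.05 in edgeR's quasi-likelihood test. Of the 78 nuclear-encoded rows, 43 were called lower (55.1%) and 0 higher (0 also at an unadjusted p below 0.05, by DESeq2 and by limma-voom), against 10.7% called lower and 8.02% called higher among all 13250 genes tested. Their median log2 fold change was -0.76, beside -0.016 over all genes, and 75 of the 78 values were negative. With S1 and S2 left out, only 11 of the 78 were called lower, against 5.26% of all genes. Of these, 0 were in complex II and 1 in complex IV, and 71 of the 78 values were negative. In 37 of the 78 all Sirt6-KD libraries lay below all Sirt6-Ctrl libraries, which held for 15.6% of all genes, and in none did they lie above, which held for 14.8% of all genes. Of the 13 mitochondrially encoded genes, 1 was called lower (Mt-nd6) and 2 higher (Mt-nd4l and Mt-atp8), with a median of 0.01. In bulk RNA, fewer cells of a type and less RNA per cell cannot be told apart. The fold changes are relative to the other RNA of each library, and when libraries were scaled by their ERCC counts instead, the median of all genes moved to 0.94 and that of the nuclear-encoded members to 0.40, so the sign of the members' median flipped while it stayed below the median of all genes. No member was called in either direction with that scaling, but only 4 of all 13250 genes were called lower (0.0302%) and 20 higher.

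**Figure D1:**
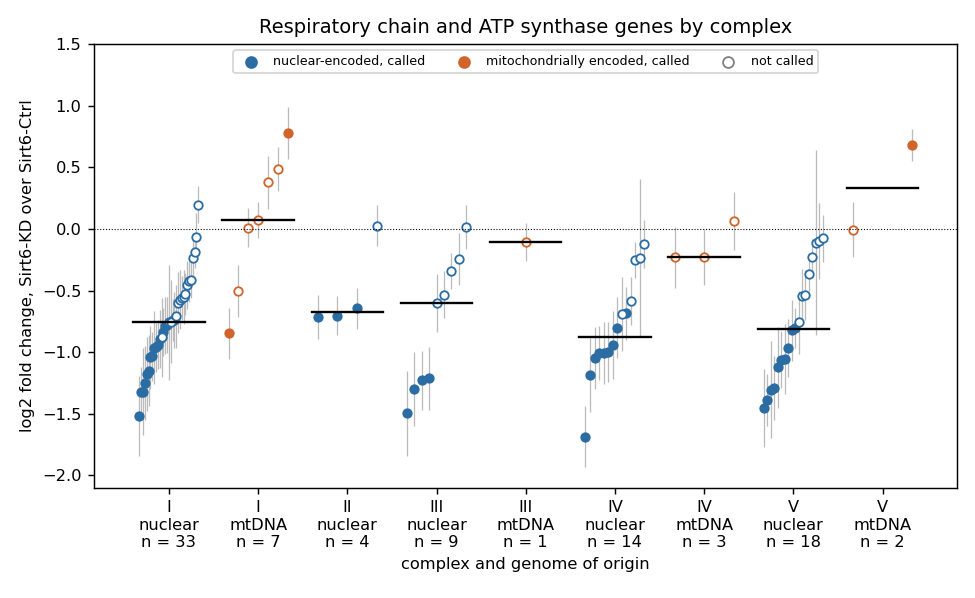
Fold change (log2, Sirt6-KD relative to Sirt6-Ctrl) of each of the 91 rows, grouped by complex and genome of origin. Circles are genes (filled when called, open when not), grey bars are 1 standard error, and black lines are group medians; the nuclear-encoded medians lie from -0.87 to -0.60 with TMM scaling (0.31 to 0.45 with ERCC scaling), while the mitochondrially encoded ones lie from -0.23 to 0.34.

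The transcription factors NRF1, GABPA (an ETS factor), ERRalpha and YY1 are known to bind the promoters of many respiratory genes. RefSeq promoter windows of the GRCr8 assembly, 250 bases before to 50 bases after the gene start, were matched for 68 of the 78 nuclear-encoded rows and gave 67 different windows. Both strands were searched for CGCATGCG (core of the NRF1 motif), CCGGAAGT (ETS/GABPA), TCAAGGTCA (ERR) and AAGATGGC (YY1), none of which contains another. CGCATGCG was in 7 of the 67 windows (10.4%) against 1.81% of all 27457 windows of the table. CCGGAAGT was in 8 (11.9% against 4.01%), TCAAGGTCA in 2 (2.99% against 0.412%) and AAGATGGC in 15 (22.4% against 3.44%). At least 1 of the 4 was in 27 member windows (40.3%) and in 9.02% of all windows. The median GC content was 56.0% in members and 52.3% in all windows, and no allowance was made for it. The 27457 windows were also not limited to the 13250 genes tested in these cells, as all members were. Split by call, the 37 windows of genes called lower held the 4 motifs in 3, 6, 2 and 9 cases. The 30 windows of genes not called held them in 4, 2, 0 and 6. CGCATGCG, CCGGAAGT and AAGATGGC thus stood in front of both kinds of genes, and TCAAGGTCA only in front of genes called lower. The split was not tested. These matches are letters in a window, not measured binding.

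The 210 bases before the start are shown for 4 called genes of complexes I, III and IV and for Ndufs1, which was not lower, so that the same letters can be seen before genes on either side of the call. All run 5′ to 3′ in the direction of the gene, on GRCr8 from RefSeq, and capitals mark CCGGAAGT or its reverse complement (Ndufb7, Uqcrh, Cox8a, Ndufs1) and overlapping copies of CGCATGCG (Ndufa11). These genes were picked for display after their values were seen.
Ndufb7, chr19:41477292-41477501, minus strand: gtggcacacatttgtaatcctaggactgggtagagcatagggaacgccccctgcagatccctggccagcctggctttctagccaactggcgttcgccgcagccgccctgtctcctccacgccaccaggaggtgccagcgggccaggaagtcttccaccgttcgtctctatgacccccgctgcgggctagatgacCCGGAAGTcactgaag
Uqcrh, chr5:134790883-134791092, minus strand: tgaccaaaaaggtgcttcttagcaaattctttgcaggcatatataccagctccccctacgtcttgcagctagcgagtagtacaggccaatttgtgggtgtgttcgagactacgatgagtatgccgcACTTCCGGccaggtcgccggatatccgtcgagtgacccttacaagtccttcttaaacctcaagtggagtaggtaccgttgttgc
Cox8a, chr1:213833624-213833833, minus strand: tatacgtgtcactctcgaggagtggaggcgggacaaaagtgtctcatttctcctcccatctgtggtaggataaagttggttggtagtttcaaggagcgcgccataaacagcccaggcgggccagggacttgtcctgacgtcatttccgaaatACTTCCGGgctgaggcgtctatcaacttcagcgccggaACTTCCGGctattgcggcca
Ndufa11, chr9:1637404-1637613, plus strand: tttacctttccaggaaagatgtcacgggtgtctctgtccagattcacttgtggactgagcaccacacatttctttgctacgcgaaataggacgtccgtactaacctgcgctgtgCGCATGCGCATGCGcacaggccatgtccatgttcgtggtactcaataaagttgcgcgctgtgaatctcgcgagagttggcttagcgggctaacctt
Ndufs1, chr9:72073606-72073815, minus strand: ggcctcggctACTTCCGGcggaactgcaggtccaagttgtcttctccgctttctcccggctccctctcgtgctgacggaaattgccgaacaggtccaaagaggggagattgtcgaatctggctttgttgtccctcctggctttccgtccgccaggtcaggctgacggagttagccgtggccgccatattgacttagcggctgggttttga
The ETS letters began 16 bases before the start in Ndufb7, 84 in Uqcrh, 58 and 20 in Cox8a and 200 in Ndufs1, and the NRF1 letters 96 and 90 bases before the start in Ndufa11. On the log2 scale Ndufb7 changed by -1.52, Uqcrh by -1.21, Cox8a by -1.05 and Ndufa11 by -1.15, while Ndufs1 was at 0.19 and not called. The RNA levels of the factors themselves are given further on.

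Complex I, the NADH dehydrogenase, had 33 nuclear-encoded members, of which 17 were called lower, with a median of -0.76 and 32 negative values. With S3 and S4 as the only controls, 5 were called lower (Ndufs3, Ndufs8, Ndufb9, Ndufa7 and Ndufb7). Ndufb7, a small accessory subunit on the intermembrane side, had the largest fall of them. It was at 88.0, 131, 41.9 and 55.1 CPM in S1 to S4 and at 30.4, 33.2, 20.7 and 25.98 CPM in S5 to S8 (log2 fold change -1.52 with a standard error of 0.32, edgeR adjusted p = 0.0113). Every Sirt6-KD library lay below every Sirt6-Ctrl library, with S2 and S1 highest and S3 closest to the Sirt6-KD values.

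Ndufs3, one of the core subunits of the arm that faces the matrix, had the smallest p of complex I. Levels were 59.1, 63.9, 38.0 and 45.6 CPM in S1 to S4 against 22.3, 16.5, 19.8 and 24.2 CPM in S5 to S8 (log2 fold change -1.32 with a standard error of 0.20, edgeR adjusted p = 0.00377). The groups were well apart, and the gap remained with S3 and S4 as the only controls (log2 fold change -1.0, adjusted p = 0.0115, edgeR). Ndufb9, an accessory subunit of the membrane arm, was at 123, 120.3, 64.1 and 94.2 CPM in Sirt6-Ctrl and at 51.1, 47.0, 44.9 and 53.1 CPM in Sirt6-KD (log2 fold change -1.03 with a standard error of 0.20, edgeR adjusted p = 0.00775). Ndufa7, an accessory subunit of the matrix arm, was at 69.7, 60.4, 39.3 and 44.4 CPM in Sirt6-Ctrl and at 31.1, 26.3, 23.8 and 28.6 CPM in Sirt6-KD (log2 fold change -0.96 with a standard error of 0.20, edgeR adjusted p = 0.0105). For both genes the groups did not overlap.

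Several subunits of complex I were not called. Ndufs1, the core subunit that carries several iron-sulfur clusters, was at 65.7, 87.7, 56.1 and 76.7 CPM in Sirt6-Ctrl and at 80.5, 78.6, 81.4 and 86.9 CPM in Sirt6-KD (log2 fold change 0.19 with a standard error of 0.15, edgeR adjusted p = 0.381), the only positive value of the 33 and within the spread of the controls. Ndufs4, an accessory subunit, had a log2 fold change of -0.07 and also overlapped. In a split into core and accessory subunits made after the values were seen, 3 of 7 nuclear core subunits (Ndufs3, Ndufs7 and Ndufs8) were called lower with a median of -0.53, and 14 of 26 accessory subunits with a median of -0.77; the difference between the 2 classes was not tested. The counts were 2 and 3 without S1 and S2. The other accessory members called lower were Ndufa2, Ndufs5, Ndufb2, Ndufa11, Ndufa8, Ndufa13, Ndufb10, Ndufc2, Ndufb8, Ndufa5 and Ndufa9, at log2 fold changes from -1.32 (Ndufa2) to -0.74 (Ndufa5 and Ndufa9). Of these, Ndufs5, Ndufa8 and Ndufb8 had groups that overlapped, and in each it was S3 that lay among the Sirt6-KD libraries. Ndufb3 and Ndufv1 had adjusted p-values of 0.0468 and 0.0497 in edgeR's test but fold changes under 1.5. Not called either were Ndufa3, Ndufa12, Ndufa6, Ndufc1, Ndufb5, Ndufb4, Ndufb11, Ndufb6, Ndufv2, Ndufa10l1 and Ndufv3, at log2 fold changes from -0.88 (Ndufa3) to -0.23 (Ndufv3).

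Complex II, the succinate dehydrogenase shared with the TCA cycle, had 3 of its 4 subunits called lower. The iron-sulfur subunit Sdhb was at 158, 205, 117 and 129.9 CPM in S1 to S4 and at 103, 93.0, 80.7 and 94.6 CPM in S5 to S8 (log2 fold change -0.71 with a standard error of 0.18, edgeR adjusted p = 0.0196). The membrane anchor Sdhc was at 171, 155, 97.8 and 139 CPM in Sirt6-Ctrl and at 91.3, 85.4, 87.6 and 95.8 CPM in Sirt6-KD (log2 fold change -0.64 with a standard error of 0.17, edgeR adjusted p = 0.0221). Sdhd, the other anchor, was at 88.5, 90.0, 57.3 and 76.4 CPM in Sirt6-Ctrl and at 46.3, 52.8, 45.8 and 47.0 CPM in Sirt6-KD (log2 fold change -0.70 with a standard error of 0.16, edgeR adjusted p = 0.0143). In all 3 the groups did not overlap, with S3 the control closest to the Sirt6-KD libraries. Sdha, the flavoprotein that oxidises succinate, was at 129.7, 87.5, 143 and 143 CPM in Sirt6-Ctrl and at 116, 131, 144 and 122 CPM in Sirt6-KD (log2 fold change 0.03 with a standard error of 0.17, edgeR adjusted p = 0.931). Its groups overlapped fully, and S2, the highest library for most other subunits, was its lowest. With S1 and S2 left out, none of the 4 was called, and the median of complex II moved from -0.67 to -0.39.

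Complex III, which passes electrons from ubiquinol to cytochrome c, had 9 rows, a median of -0.60 and 4 rows called lower, or 2 without S1 and S2 (Uqcr11 and Uqcrh). All 4 encode small subunits. Uqcr10 was at 58.8, 72.6, 22.6 and 30.5 CPM in S1 to S4 and at 19.3, 14.4, 12.6 and 19.1 CPM in S5 to S8 (log2 fold change -1.5 with a standard error of 0.35, edgeR adjusted p = 0.0152). Uqcrq was at 166, 273, 96.0 and 124 CPM in Sirt6-Ctrl and at 77.6, 62.5, 48.1 and 79.4 CPM in Sirt6-KD (log2 fold change -1.30 with a standard error of 0.30, edgeR adjusted p = 0.0152). In both genes S2 was highest and the groups did not overlap. Uqcr11 was at 132, 134, 62.1 and 104 CPM in Sirt6-Ctrl and at 47.7, 42.4, 37.0 and 57.1 CPM in Sirt6-KD (log2 fold change -1.23 with a standard error of 0.24, edgeR adjusted p = 0.00835). Uqcrh, the acidic hinge protein next to cytochrome c1, was at 98.6, 100.3, 41.1 and 65.8 CPM in Sirt6-Ctrl and at 34.1, 28.5, 35.0 and 34.5 CPM in Sirt6-KD (log2 fold change -1.21 with a standard error of 0.26, edgeR adjusted p = 0.0110). Both were again without overlap.

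The large core proteins and the Rieske iron-sulfur protein of complex III were not called. Uqcrc2 was at 78.2, 139, 105 and 91.8 CPM in Sirt6-Ctrl and at 112, 88.8, 110.2 and 108 CPM in Sirt6-KD (log2 fold change 0.02 with a standard error of 0.18, edgeR adjusted p = 0.957). Uqcrc1 had a log2 fold change of -0.34 and Uqcrfs1, the Rieske protein, of -0.53 with groups that did not overlap. Uqcrb stood on a pair of rows, at -0.60 and -0.25, whose reads may be shared between near-identical copies, so each value is uncertain.

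Complex IV, cytochrome c oxidase, had a median of -0.87, with 9 of 14 nuclear-encoded rows called lower and all 14 values negative. Of the 14, Ndufa4 alone was called without S1 and S2. Differences between complexes were not tested, and the order of their medians depended on the scaling. Ndufa4, named for complex I but counted here with complex IV, of which it is known to be a subunit, had the largest fall of all 91 rows. It was at 132, 181, 75.4 and 121 CPM in S1 to S4 and at 40.3, 34.1, 34.2 and 50.01 CPM in S5 to S8, a 3.22-fold lower level (log2 fold change -1.69 with a standard error of 0.25, edgeR adjusted p = 0.00327). The groups were far apart, and it was still called without S1 and S2 (log2 fold change -1.30, adjusted p = 0.00981, edgeR). Its paralog Ndufa4l2, a gene known to be induced by hypoxia, was at 556, 724, 508 and 549 CPM in Sirt6-Ctrl and at 533, 499.7, 492 and 433 CPM in Sirt6-KD (log2 fold change -0.26 with a standard error of 0.15, edgeR adjusted p = 0.234). Its groups overlapped.

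Cox6c was at 129.9, 206, 62.8 and 94.9 CPM in Sirt6-Ctrl and at 56.3, 52.9, 48.3 and 59.4 CPM in Sirt6-KD (log2 fold change -1.19 with a standard error of 0.30, edgeR adjusted p = 0.0202). Cox8a was at 196, 231, 98.9 and 143 CPM in Sirt6-Ctrl and at 99.5, 74.0, 61.9 and 88.4 CPM in Sirt6-KD (log2 fold change -1.05 with a standard error of 0.25, edgeR adjusted p = 0.0175). Both are small membrane subunits; S3 lay just above the Sirt6-KD libraries for Cox6c and just below S5 for Cox8a, so the Cox8a groups overlapped. Cox6a1, the form of subunit VIa made in most tissues, was at 366, 432, 203 and 278 CPM in Sirt6-Ctrl and at 178, 155, 129 and 174 CPM in Sirt6-KD without overlap (log2 fold change -1.01 with a standard error of 0.22, edgeR adjusted p = 0.0125). Its muscle-type paralog Cox6a2 was low, at 4.97, 9.49, 0.971 and 2.18 CPM in Sirt6-Ctrl and at 5.44, 4.48, 2.29 and 2.72 CPM in Sirt6-KD, overlapping throughout (log2 fold change -0.24 with a standard error of 0.64, edgeR adjusted p = 0.825). With TMM scaling and all 8 libraries, the common form of subunit VIa was thus lower. Without S1 and S2, Cox6a1 was at -0.59 and not called (edgeR adjusted p = 0.0529), and with ERCC scaling it was at 0.14. For the muscle form no change could be shown at its low counts.

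Cox6b1, a subunit on the intermembrane side, was called on the row ENSRNOG00000024309, at 129.8, 168, 70.1 and 93.9 against 68.5, 56.5, 48.0 and 58.1 CPM (log2 fold change -1.0 with a standard error of 0.25, edgeR adjusted p = 0.0188), and not on ENSRNOG00000034161, which held 5.82 to 12.4 CPM; reads may be split between the copies. Cox7a2l, known as a factor that joins complexes III and IV into supercomplexes rather than as an ordinary subunit, was at 251, 305, 185 and 159.7 CPM in Sirt6-Ctrl and at 222, 220.1, 207 and 179.6 CPM in Sirt6-KD (log2 fold change -0.12 with a standard error of 0.20, edgeR adjusted p = 0.699), with overlap. Cox5a, Cox7a2l2, Cox5b and Cox7b were called lower at log2 fold changes of -1.01, -0.94, -0.80 and -0.68, and Cox7c was not called at -0.58.

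Complex V had 10 of its 18 nuclear-encoded rows called lower, a median of -0.81 and 18 negative values. Only 3 were called lower without S1 and S2 (Atp5mc1, Atp5mf and Atp5pf). Atp5i, the membrane subunit e found where ATP synthase dimers meet, was at 90.6, 106, 34.9 and 54.1 CPM in S1 to S4 and at 29.3, 23.6, 20.3 and 31.0 CPM in S5 to S8 (log2 fold change -1.46 with a standard error of 0.32, edgeR adjusted p = 0.0121). Atp5mc1, 1 of 3 genes for the proton-carrying c ring, was at 144, 131, 67.5 and 98.0 CPM in Sirt6-Ctrl and at 41.6, 41.3, 41.6 and 43.6 CPM in Sirt6-KD (log2 fold change -1.39 with a standard error of 0.21, edgeR adjusted p = 0.00376). Neither gene's groups overlapped, and the Sirt6-KD libraries of Atp5mc1 were nearly level. The 3 genes encode the same mature c subunit, and Atp5mc3 was called lower at -0.82 while Atp5mc2 was not called at -0.08.

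Atp5mf, subunit f of the membrane part, was at 119, 153, 55.8 and 93.7 CPM in Sirt6-Ctrl and at 43.4, 37.0, 43.2 and 48.9 CPM in Sirt6-KD (log2 fold change -1.29 with a standard error of 0.26, edgeR adjusted p = 0.00950). Atp5pf, coupling factor 6 of the stalk, was at 122, 126, 77.98 and 125 CPM in Sirt6-Ctrl and at 61.7, 67.6, 63.2 and 66.5 CPM in Sirt6-KD (log2 fold change -0.80 with a standard error of 0.16, edgeR adjusted p = 0.00950). Both were without overlap, and in Atp5pf S3 lay apart below the other controls. Atp5f1b, the catalytic beta subunit of F1, was at 989.7, 1210.0, 837 and 884 CPM in Sirt6-Ctrl and at 859, 837, 805 and 851 CPM in Sirt6-KD (log2 fold change -0.23 with a standard error of 0.15, edgeR adjusted p = 0.290), with S3 within the Sirt6-KD range. The alpha subunit Atp5f1a had a log2 fold change of -0.37 (adjusted p = 0.0727, edgeR) and the gamma subunit Atp5c1 of -0.54, neither called, whereas the small delta and epsilon subunits Atp5f1d and Atp5f1e were called lower at -0.97 and -1.12. In a split made after the values were seen, 2 of 5 F1 subunits and 7 of 11 F0 and stalk subunits were called lower, with medians of -0.54 and -0.82, and the difference was not tested. The counts were 0 and 3 without S1 and S2. Atp5h and Atp5md were the other F0 and stalk rows called lower, at -1.06 and -1.30, and Atp5po and Atp5mg were not, at -0.76 and -0.55. Atp5pb, the b subunit of the stalk, was listed at 0.278 to 3.51 CPM and its row, with a standard error of 0.75, gives no usable fold change. A pair of rows encodes no subunit: Atp5if1, the inhibitor of ATP hydrolysis by the synthase, was called lower at -1.05, and Atp5s, named for a coupling factor, was at -0.10.

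**Figure D2:**
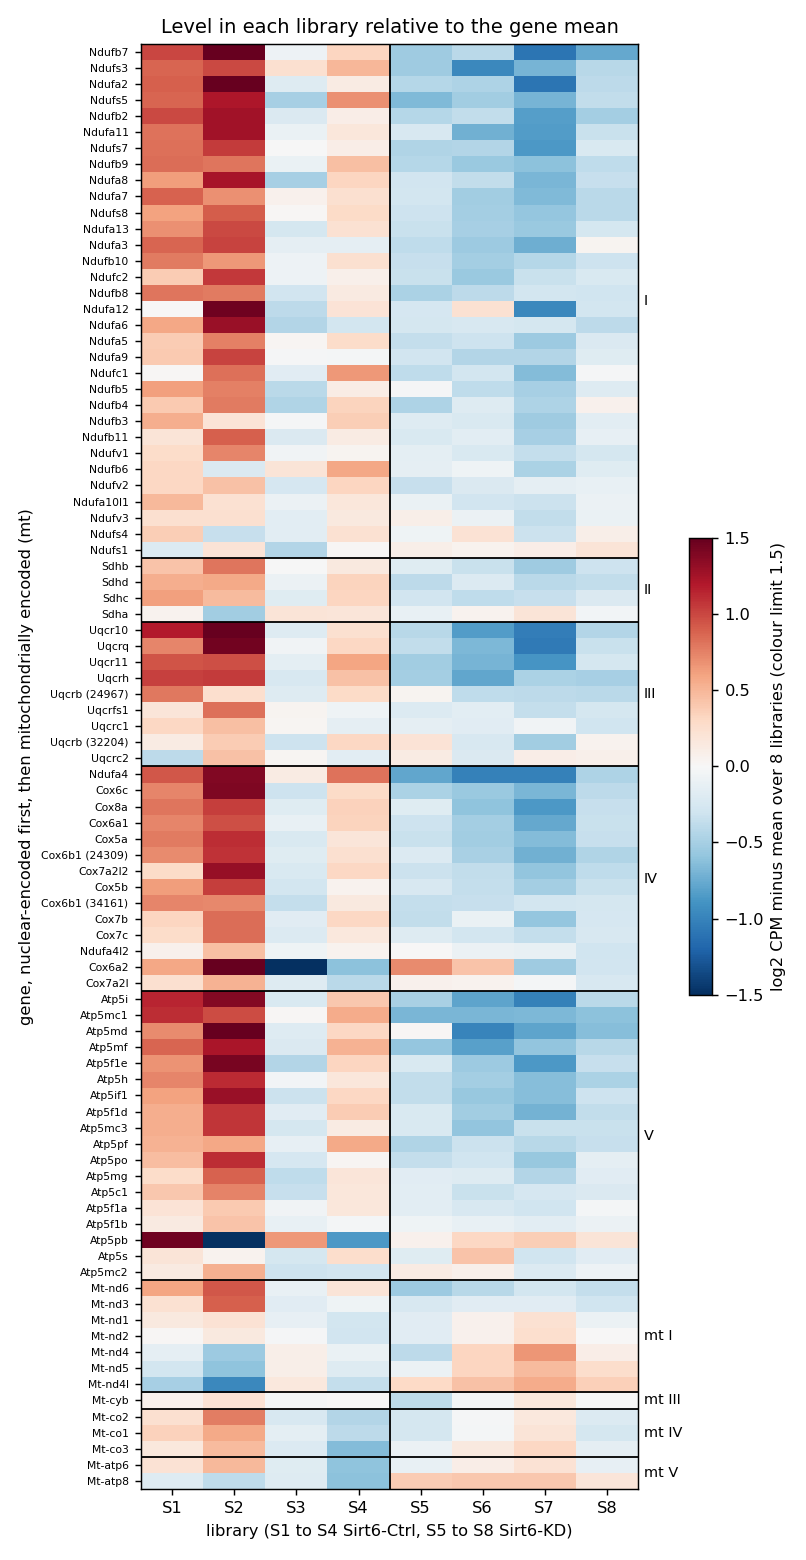
Level of 90 of the 91 rows in each library as log2 CPM minus the gene's mean over the 8 libraries, by complex, with nuclear-encoded rows above and mitochondrially encoded rows below; 5-digit endings of identifiers tell apart repeated names. Red is higher and blue lower, and S1 and S2 are red for most nuclear-encoded rows, S3 and S4 paler, and S5 to S8 blue.

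The 13 genes of mitochondrial DNA are transcribed together from long precursors of both strands and were mostly not called. Mt-co1, the catalytic subunit of complex IV, was at 12620, 14800, 8994 and 7613 CPM in S1 to S4 and at 8285, 9723, 11340 and 8266 CPM in S5 to S8 (log2 fold change -0.23 with a standard error of 0.23, edgeR adjusted p = 0.512). Mt-co2 was at 1612, 2313, 1153 and 1007 CPM in Sirt6-Ctrl and at 1136, 1343, 1518 and 1186 CPM in Sirt6-KD. Mt-co3 was at 2827, 3523, 2201 and 1614 CPM in Sirt6-Ctrl and at 2379, 2799, 3147 and 2300 CPM in Sirt6-KD. In these subunits of complex IV, S1 and S2 were again high but S3 and S4 lay within or below the range of the Sirt6-KD libraries, and Mt-co2 and Mt-co3 were at -0.23 and 0.06 on the log2 scale (edgeR adjusted p = 0.539 and 0.874). Mt-cyb, the cytochrome b of complex III, was at 1548, 1719, 1457 and 1475 CPM in Sirt6-Ctrl and at 1144, 1452, 1676 and 1484 CPM in Sirt6-KD (log2 fold change -0.11 with a standard error of 0.15, edgeR adjusted p = 0.653). Its groups overlapped.

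Complex I has 7 mitochondrially encoded subunits, which are core subunits of its membrane arm. Mt-nd1 was at 980.1, 1035, 818 and 731 CPM in Sirt6-Ctrl and at 788, 926, 1039 and 836 CPM in Sirt6-KD, and Mt-nd2 at 718, 785, 700.2 and 581 against 631, 741, 849 and 711 CPM. Their log2 fold changes were 0.01 and 0.07 (adjusted p = 0.973 and 0.750, edgeR), with full overlap. Mt-nd3 was at 144, 229, 109.5 and 118 CPM in Sirt6-Ctrl and at 104, 109.8, 109.3 and 100.2 CPM in Sirt6-KD (log2 fold change -0.50 with a standard error of 0.21, edgeR adjusted p = 0.115). Mt-nd4 was at 120.1, 90.6, 141 and 123 CPM in Sirt6-Ctrl and at 101, 165, 209 and 142 CPM in Sirt6-KD, and Mt-nd5 at 495, 394, 637 and 526 against 566, 752, 837 and 723 CPM. Mt-nd4 and Mt-nd5 were at 0.38 and 0.49 and were not called (edgeR adjusted p = 0.233 and 0.0731), and their groups overlapped.

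Called higher was Mt-nd4l, at 59.9, 43.4, 94.6 and 65.9 CPM in S1 to S4 and at 104, 115, 125 and 108 CPM in S5 to S8 (log2 fold change 0.78 with a standard error of 0.21, edgeR adjusted p = 0.0251). Mt-nd6 was called lower, at 349.8, 443, 216 and 266 CPM in Sirt6-Ctrl and at 159.5, 175, 193 and 181 CPM in Sirt6-KD (log2 fold change -0.85 with a standard error of 0.20, edgeR adjusted p = 0.0178). In both the groups did not overlap, in opposite directions. Mt-nd4l shares its messenger with Mt-nd4, whose reading frame it overlaps, and Mt-nd6 is the one protein gene on the other strand of mitochondrial DNA. How reads on overlapping genes and on either strand were counted is not given in the sources used here, so reads of the neighbours may be part of both values.

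The ATP synthase genes of mitochondrial DNA also lie on 1 messenger and overlap. Mt-atp6, the proton channel, was at 2385, 2865, 1805 and 1343 CPM in Sirt6-Ctrl and at 1897, 2195, 2383 and 1877 CPM in Sirt6-KD (log2 fold change -0.01 with a standard error of 0.22, edgeR adjusted p = 0.986). Mt-atp8, a small membrane subunit, was at 151, 132, 151 and 113 CPM in Sirt6-Ctrl and at 225, 229, 227 and 195 CPM in Sirt6-KD (log2 fold change 0.68 with a standard error of 0.13, edgeR adjusted p = 0.00825). Mt-atp8 had no overlap between the groups and was called with each library left out in turn, at 0.60 to 0.77, while Mt-nd4l and Mt-nd6 were each lost in some of these fits. Since the counting of reads on overlapping genes is not given, reads of Mt-atp6 may be part of the Mt-atp8 value. Nuclear copies of mitochondrial DNA can add or take reads of any of the 13 genes.

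Summed over the 78 nuclear-encoded rows, the level was 9540, 12000, 6408 and 7810 CPM in S1 to S4 and 6160, 5769, 5420 and 5974 CPM in S5 to S8. The mean was 8940 ± 2410 CPM against 5831 ± 317 CPM (SD, n = 4 per group). All 4 Sirt6-KD sums lay below all Sirt6-Ctrl sums, but S3 was only just above S5, and S1 and S2 made up most of the distance. The sums of each complex were ordered in a similar way, and that of complex II was at 547, 537, 415 and 488 CPM in Sirt6-Ctrl and at 356, 362, 358 and 359 CPM in Sirt6-KD. As a share of the counts outside the spike-ins, the nuclear-encoded rows took 0.979%, 1.12%, 0.702% and 0.828% in S1 to S4 and 0.646%, 0.612%, 0.581% and 0.622% in S5 to S8. The 13 mitochondrially encoded rows summed to 24010, 28370, 18480 and 15570 CPM in Sirt6-Ctrl and to 17520, 20730, 23650 and 18110 CPM in Sirt6-KD. These sums overlapped, at 21610 ± 5708 against 20000 ± 2803 CPM (SD, n = 4 per group).

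**Figure D3:**
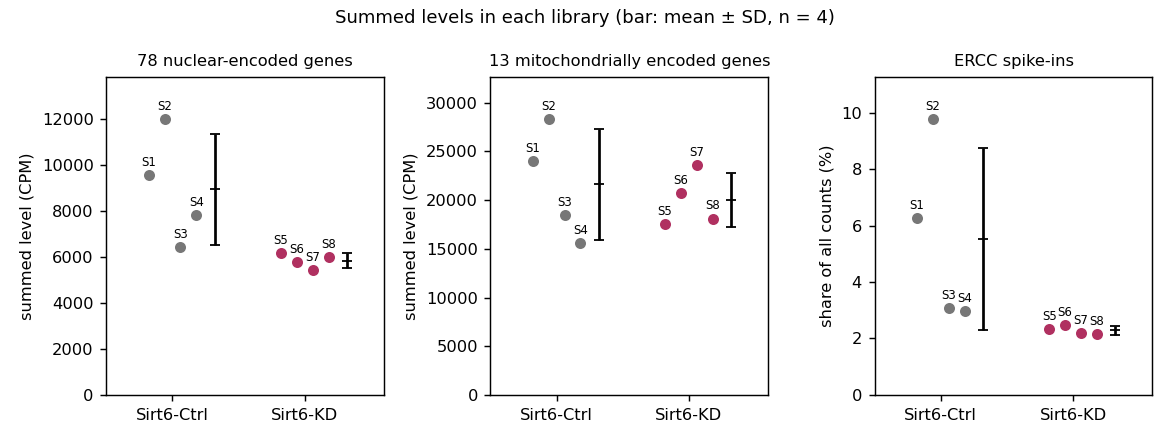
Summed CPM of the 78 nuclear-encoded and the 13 mitochondrially encoded rows and the share of all counts taken by ERCC spike-ins, per library, with the mean and SD (n = 4) as bars; both axes of sums start at 0. S1 and S2 are highest in all 3 panels, and the nuclear-encoded sums of S5 to S8 lie between 5420 and 6160 CPM.

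The controls differed among themselves more than the knockdown cells did, over all genes as well as in the members. Log2 CPM of all genes tested correlated (Pearson) at 0.8896 to 0.9405 among Sirt6-Ctrl libraries and at 0.9658 to 0.9716 among Sirt6-KD libraries. S3 correlated at 0.9432 to 0.9499 with S5 to S8, and at 0.923, 0.8898 and 0.9405 with S1, S2 and S4. The coefficient of variation was larger in Sirt6-Ctrl for 75 of the 78 nuclear-encoded rows, with a median of 33% against 10.4% in Sirt6-KD. S2 was the highest control for 63 rows and S1 for 12, and S3 was the lowest control for 68. The ERCC share was highest in the same libraries, S2 and S1; its part in the result was not tested. In 38 rows S3 and S4 both still lay above every Sirt6-KD library, and in 68 rows S1 and S2 both did. These counts of rows and the coefficients of variation were not computed over all genes. Without S1 and S2, 11 nuclear-encoded rows were called lower against 5.26% of all genes, 71 of the 78 values were negative, and all 11 were among the 44 members called with all libraries. They were Ndufa4, Ndufs3, Atp5mc1, Uqcr11, Ndufb7, Atp5mf, Uqcrh, Ndufb9, Atp5pf, Ndufa7 and Ndufs8, at log2 fold changes from -1.30 to -0.60, and Mt-atp8 remained higher. Single libraries moved the count too, and the share of all genes called lower (in parentheses) moved with it. Without S3, 60 members were called lower (14.4%), without S2 31 (8.57%) and without S8 29 (7.43%). Without S5 there were 23 (5.97%), without S1 19 (5.83%), without S6 16 (5.28%) and without S7 16 (5.72%).

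**Figure D4:**
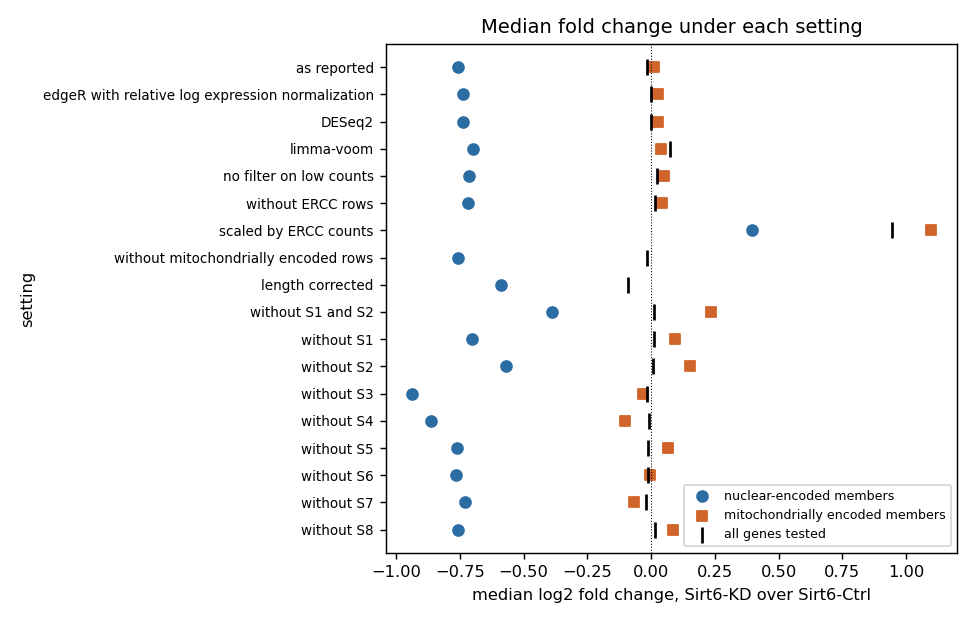
Median log2 fold change of the nuclear-encoded members (blue circles), the mitochondrially encoded members (orange squares) and all genes tested (black ticks) under each way of processing the counts. The blue circles lie below the black ticks in every row, and with ERCC scaling the whole picture moves right, to 0.40, 1.10 and 0.94.

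Most nuclear-encoded members are short genes, with a median span of 7.07 kb on GRCr8, introns included, against 25.02 kb for the 11830 genes with a span. Over all these genes a longer span went with a higher log2 fold change (Spearman's rho 0.336 across genes, which share their libraries and are not independent replicates), and over the 78 members rho was 0.421. Genes under 3 kb had a median log2 fold change of -0.39 and those over 100 kb of 0.44. Within spans of 5 to 10 kb, where 31 members lie, the members' median was -0.79 and that of all genes -0.29, with 19.3% of all genes called lower there. From 10 to 20 kb the medians were -0.53 for 13 members and -0.17 for all genes. After a correction of each library for span, 29 nuclear-encoded members were called lower against 12.9% of all genes, with a median of -0.59 beside -0.09 over all genes with a span, and Ndufa4 was at -1.51. How far span and complex membership each account for the members' values was not tested.

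**Figure D5:**
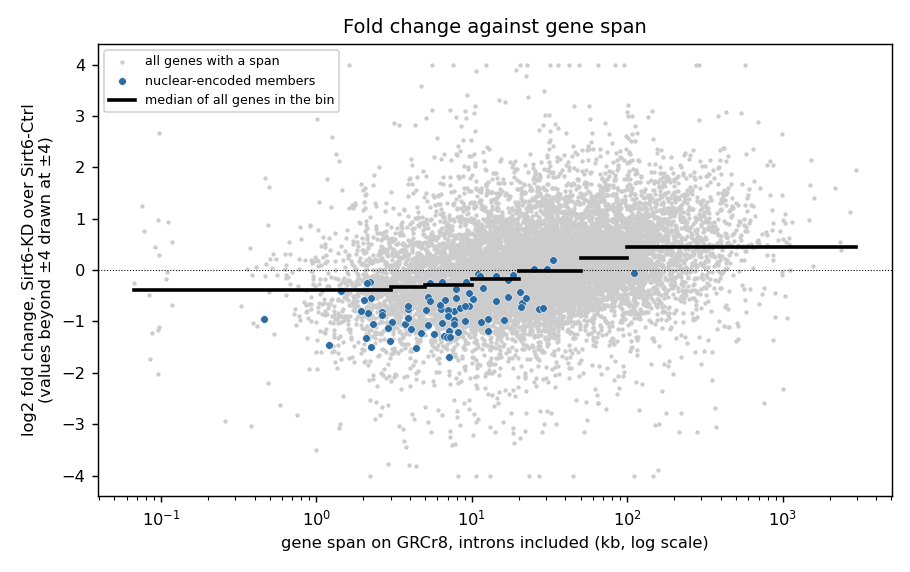
Log2 fold change against gene span (kb, log scale) for all genes with a span (grey) and the 78 nuclear-encoded members (blue), with the median of all genes in 7 bins of span as black lines. The bin medians rise from -0.39 to 0.44, and most blue points lie below the line of their bin.

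Of 8 subunits and partners that the naming rule did not cover or covered under another name, 3 were called lower (Cox4i1, Higd2a and Atp5md, the last also a member), and 0 without S1 and S2. Counts of the lists stand beside 10.7% called lower among all genes, or 5.26% without S1 and S2. Cox4i1, the main form of subunit IV of complex IV, fell from 343 to 207 CPM on average (log2 fold change -0.73 with a standard error of 0.22, edgeR adjusted p = 0.0371), while its hypoxia-responsive paralog Cox4i2 was at 0.30 and not called. Cytochrome c, Cycs, had a log2 fold change of -0.50 with an adjusted p of 0.0268 in edgeR's test and missed the fold threshold. Assembly factors of complex I were called lower in 5 of 16 (Dmac1, Ndufaf1, Ndufaf8, Timmdc1 and Tmem186), with a median of -0.54. Those of complexes II and III were called lower in 2 of 9 (Uqcc1 and Uqcc3, median -0.21), those of complex IV in 7 of 19 (Coa5, Cox10, Cox14, Cox16, Cox19, Pet100 and Sco1, median -0.59) and those of complex V in 1 of 4 (Tmem70, median -0.62). Pet100, needed to build cytochrome c oxidase, fell from 47.1 to 16.1 CPM (log2 fold change -1.55 with a standard error of 0.25, edgeR adjusted p = 0.00421). None of these assembly factors was called higher. Without S1 and S2 the 4 counts were 3, 0, 6 and 0. With ERCC scaling 0 of the assembly factors were called, where only 0.0302% of all genes were called lower and 20 of 13250 higher. The medians of the 4 assembly lists were then positive, 0.42 to 0.78, and 0.16 to 0.52 below the median of all genes.

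Maintenance and expression of mitochondrial DNA was covered by 25 genes, of which 6 were called lower (Mterf4, Polg2, Slirp, Tfb2m, Trmt10c and Twnk) and 0 higher, with a median of -0.39. Twnk, the helicase that replicates mitochondrial DNA, had a log2 fold change of -1.06 and Tfb2m, a transcription factor of mitochondrial RNA polymerase, of -0.86. The TCA cycle list had 3 of 15 called lower (Mdh2, Pdhb and Pdhx, list median -0.27), the last 2 being parts of the pyruvate dehydrogenase complex. Import and inner membrane genes had 5 of 27 called lower (Timm10, Timm13, Timm17a, Tomm20 and Tomm22, list median -0.24), which belong to the translocases that bring nuclear-encoded subunits in. None was higher in either list. Without S1 and S2 the calls in the DNA maintenance, TCA cycle and import lists went from 6, 3 and 5 to 2, 1 and 2, and the median of the import list moved to 0.0016. With ERCC scaling the medians of these 3 lists were 0.66, 0.77 and 0.77, or 0.29, 0.17 and 0.17 below the median of all genes. In that setting 0 genes of the 3 lists were called, and only 0.0302% of all genes were called lower. Of 9 nuclear regulators of respiratory genes tested, 0 were called in edgeR's test (2 at an unadjusted p below 0.05), and their median was 0.30, which was 0.31 above the all-gene median with ERCC scaling. Nrf1, Gabpa, Esrra and Yy1, the factors whose motifs were searched for, were at 0.18, 0.12, 0.42 and -0.05 on the log2 scale (edgeR adjusted p = 0.599, 0.582, 0.158 and 0.877).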

How the data were processed

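Bulk RNA-seq of 8 cultures was analysed. The deposited counts, 1 column per library, are raw reads per Ensembl gene or ERCC spike-in as counted by the authors; the submitters' processing notes name Trimmomatic 0.36, STAR 2.5.2b, featureCounts, Subread 1.5.2, DESeq2 and the Rnor_6.0 build. A second table, also deposited by the authors, holds normalized signal (raw counts over 1 size factor per library), log2 fold changes and p-values of the authors' comparison; only its gene names were used. Groups were taken from the labels.

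Rows were filtered with filterByExpr of edgeR 4.0.16 (R 4.3.3), which left 13313 rows, 63 of them ERCC rows, which stayed in the fit but are not counted as genes. TMM normalization and the two-sided quasi-likelihood test followed, with p-values adjusted by Benjamini-Hochberg across the 13313 rows. The standard error is the log2 fold change divided by the square root of its F statistic. Levels are TMM-normalized CPM, which were not divided by gene length and are not compared between genes. A floor of 3 counts corresponds to 0.0727 to 0.0928 CPM; reads are not independent molecules, so this covers counting error only.

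Members and gene lists were chosen with earlier results of these data known. The genes given with values in every library are all 13 mitochondrially encoded ones; in each complex the 3 nuclear-encoded rows with the smallest p, the 2 most changed of those called in each direction and the 1 with the highest mean level; listed paralog pairs; and Sirt6. One gene that this rule covers is not reported here. Ndufs1, Uqcrc2 and Ndufa11 were added after their values were seen. Scripts were tested on simulated data. The alternatives were RLE normalization, DESeq2 1.42.0, limma-voom (limma 3.58.1), no filter, no ERCC rows, ERCC scaling, no mitochondrially encoded rows, a loess correction for gene span (span 0.5, limma), an adjusted p alone, and libraries left out.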

Additional observations from a re-analysis of the deposited data

Results flagged for a closer look

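Over the named members, the summed levels and Sirt6, 96 groups of 4 libraries were examined for 1 library far from the other 3, by the share of the group's range that its gap to the nearest library takes (Dixon's test). This flagged 5 groups, and chance alone gives about 1 in 20, or 5. In Sirt6-Ctrl, S3 was the lowest library for Atp5pf (0.909 of the range). In Sirt6-KD, S8 was the highest for Atp5mc1 (0.835) and the lowest for Mt-atp8 (0.872), and S6 was the lowest for Uqcrh (0.856) and the highest for Sdhd (0.837).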

How the results depend on the processing

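Of the members called lower, all 44 were also called with RLE normalization, with DESeq2 (which called 47) and without ERCC rows, 43 without a filter and 40 with limma-voom. In each of these, 2 members were called higher. The share of all genes called lower was 10.2% with RLE and 12.8% with DESeq2. It was 9.88% without ERCC rows, 9.01% without a filter and 9.88% with limma-voom. The span correction left 29 nuclear-encoded members called lower (12.9% of all genes) and has no value for mitochondrially encoded genes. An adjusted p alone gave 46 (12.8% of all genes). Without S1 and S2 there were 11 lower, all nuclear-encoded, and 1 higher, which is mitochondrially encoded, with a median of -0.39 for complex II. With each library left out in turn, members called lower ranged from 16 to 60, beside 5.28% to 14.4% of all genes. Members called higher ranged from 1 to 3, nuclear-encoded members called lower from 15 to 58, and mitochondrially encoded members called in either direction from 1 to 5.

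Scaling by ERCC counts gave 0 members called lower, 0 higher, 0 nuclear-encoded and 0 mitochondrially encoded by edgeR. The median over all genes was 0.94, and of all 13250 genes only 4 were called lower (0.0302%) and 20 higher. At an unadjusted p below 0.05 in the same test, 15 members were higher and 0 lower. Of these 15, 11 were mitochondrially encoded and 4 nuclear-encoded, and the share of all genes at that p was not computed. The medians were 0.40 for nuclear-encoded members, 1.10 for mitochondrially encoded ones, and 0.39, 0.41, 0.45, 0.34 and 0.31 for nuclear-encoded complexes I to V, and Sirt6 was at -0.36. Of the nuclear-encoded members, 73 of 78 lay below the all-gene median. The log2 fold changes that changed sign among named called genes were Ndufb9 0.078, Cox6c 0.089, Cox8a 0.13, Cox6a1 0.14, Ndufa7 0.14, Cox6b1 0.19, Atp5pf 0.23, Mt-nd6 0.31, Sdhd 0.36, Sdhb 0.40 and Sdhc 0.43. Whether the spike-in share reflects RNA input was not tested.

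No paired analysis was possible because nothing in the labels or column names links a library of one group to a library of the other by animal. Low counts limited Atp5pb, whose lowest library held 9 reads, and Cox6a2.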
